A study of Homo sapiens with 12 samples.

Results

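The late decay difference asks whether an mRNA fell further, or less far, between 8 and 12 h without transcription when the RNA demethylase ALKBH5 was depleted. It was measured in NOMO-1, a leukaemia line grown from the cells of a patient with monocytic acute myeloid leukaemia. For each gene the change log2(signal at 12 h / signal at 8 h) was taken within each of 4 lines of libraries, and the change of the median gene of that line was subtracted. The mean of this centred late change over 2 control replicates was then subtracted from its mean over 2 knockdown lines. A positive difference therefore means that the knockdown kept more of a gene's 8 h signal, relative to its own median gene, and a negative one that it kept less. The members are the gene rows, without spike-ins, whose signal before the drug was at least 10 in all 4 libraries at 0 h. They number 7485 of 9529 genes, and 2044 were left out. OPLAH was the last gene inside the threshold, with a lowest 0 h signal of 10.003, and PTGR2 the first outside, with 9.999.

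Control cells carried the lentiviral hairpin shNS and knockdown cells a lentiviral hairpin against ALKBH5. All cells were selected with puromycin and treated with actinomycin D, and poly(A) RNA was sequenced at 0, 8 and 12 h. Of the 12 libraries of the series, the 8 at 8 and 12 h enter the difference: 2 shNS replicates and 2 knockdown lines, called D and E after the table headers. Each knockdown line carries 1 of 2 hairpins, and no label ties the letters to the hairpin numbers, so the arms also differ in that the knockdown mixes hairpins. The labels' treatment protocol names a virus against FTO and drug treatments, which the titles do not, and the titles were followed.

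N6-methyladenosine (m6A) is laid on mRNA by a writer complex with METTL3 and METTL14 as its core, is removed by the demethylases ALKBH5 and FTO, and is bound by readers. Among the readers, YTHDF2 recruits deadenylases that shorten mRNA life, while the IGF2BP proteins are known to stabilise their targets. Actinomycin D blocks transcription, so the later fall of an mRNA reflects its removal. In acute myeloid leukaemia ALKBH5 has been described as supporting leukaemia stem cells, with TACC3, a spindle protein, among its reported targets.

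ALKBH5 itself was low in every knockdown library. Controls held an ALKBH5 signal of 35.9 and 32.1 at 8 h, and lines D and E 1.52 and 4.29. By 12 h these had become 8.22 and 8.30 in controls and 0.636 and 0.973 in lines D and E. The centred late change of what remained was -0.36 and -0.33 in the shNS replicates and -0.14 and -0.50 in lines D and E. These overlapped, and the late decay difference of ALKBH5 was 0.02 (SE 0.14, adjusted p = 0.942), with the opposite sign in line E alone.

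The signal fell in all 4 lines before any centring, and the fall was smallest in line D. The median gene kept 29.4% and 32.5% of its 8 h signal at 12 h for shNS, 46.1% for line D and 32.2% for line E. Over the first 8 h line D had fallen furthest: the median log2 change was -1.30 and -1.32 for shNS, -2.14 for line D and -1.63 for line E. On the deposited scale the median late decay difference was 0.34, against 0.02 after centring, so every direction below is relative to the median gene. The 46 ERCC spike-in transcripts changed, at their median, by between -0.01 and 0.04. Ribosomal RNA fell too, by different amounts in each line: 18S changed by -1.54 and -0.69 in the shNS replicates and by -1.01 and -1.47 in lines D and E. The signal is apparently per unit of spike-in, which no label states, so fewer cells and less RNA per cell cannot be told apart. The part of ribosomal RNA and of the scaling in the results was not tested. Of 12 myeloid identity markers 10 were measured and 9 were members, and CD14 was not analysed here. Of 32 markers of lymphoid, erythroid, megakaryocytic and epithelial cells, 2 were measured, each below 3 in all libraries at 8 and 12 h, and the others were not analysed here.

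**Figure D1:**
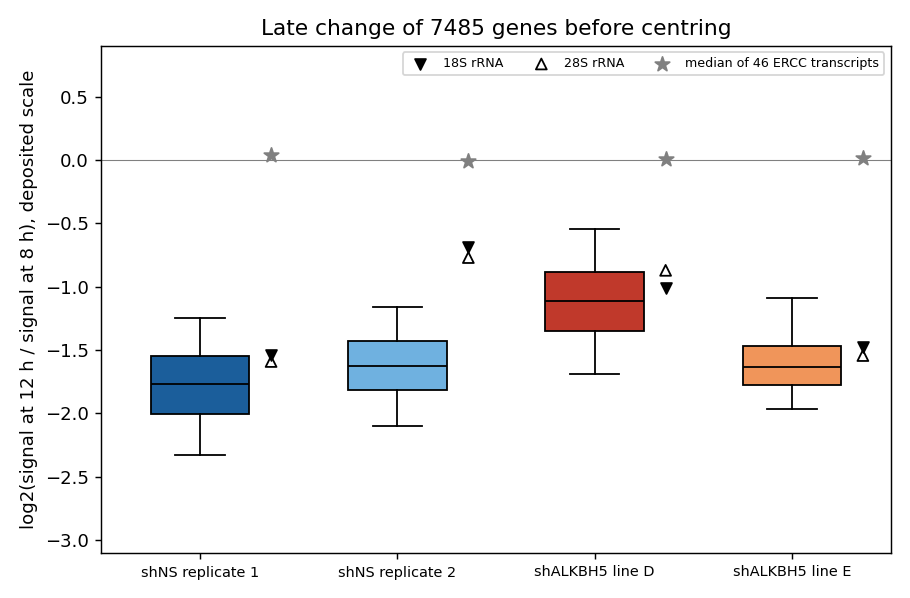
Late change of the 7485 genes in each line on the deposited scale, as log2 of the 12 h over the 8 h signal. Boxes span the quartiles with the median as a line, whiskers the 5th to 95th percentile, and symbols beside each box mark 18S and 28S rRNA and the median ERCC transcript. Line D fell least, with a median of -1.12, and the shNS replicates and line E lay between -1.76 and -1.62.

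Only 4 of the 7485 genes were called, at a limma p-value adjusted over all of them under 0.05: 3 were higher (0.0401%) and 1 lower (0.0134%). Without adjustment 797 had p under 0.05 with a higher and 780 with a lower late change. The separation of the lines was much more common than the calls. Both knockdown lines lay above both shNS replicates for 2142 genes (28.6%) and below both for 1956 (26.1%). Differences were small for most genes, with quartiles of -0.15 and 0.19 and a median SE of 0.13. They exceeded 0.5 in 244 genes and fell short of -0.5 in 123. The 2 shNS replicates resembled each other more than the 2 knockdown lines did. Over genes, the SD between paired centred changes was 0.13 for the shNS replicates and 0.19 for lines D and E. The counts of higher and lower calls were 7 and 8 without shNS replicate 1, 34 and 24 without shNS replicate 2, 345 and 657 with line D alone, and 517 and 311 with line E alone, and each of these sets held the 4 genes. They were 2 and 0 on the deposited scale, where only 1 of the 2 was among the 4 genes. Median-of-ratios scaling gave 5 and 8 and centring on ribosomal protein genes 87 and 43, and both sets held the 4 genes. All 4 calls were lost when the replicate block, the subtraction within a line, was replaced by group means over libraries (no gene called, 131 at unadjusted p under 0.05), and when the block was fitted over all 12 libraries (no gene called, 878 at unadjusted p under 0.05). Nothing says that the 2 shNS replicates came from separate cultures, and lines D and E carry different hairpins. A p-value here is thus set against a pooled spread. For shNS that spread may be only technical, and for the knockdown it also holds the hairpin.

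Each of the called features shares sequence or position with another gene, so which transcript the reads came from is uncertain. MIR3064, a microRNA gene at chr17:64500774-64500839 on the minus strand (GRCh38), was the largest. It lies within DDX5, an RNA helicase gene on the same strand, in an intron of 8 of the 9 DDX5 transcripts of GENCODE 29 that span it and in an exon of 1. Its hairpin is shown because a stretch this short carries the largest difference in the data, with the mature microRNAs in capitals, from RefSeq on GRCh38.p14.
MIR3064: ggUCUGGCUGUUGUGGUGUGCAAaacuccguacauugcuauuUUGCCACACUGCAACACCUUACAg

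The MIR3064 signal went from 32.7 to 3.10 and from 31.8 to 2.90 between 8 and 12 h in the shNS replicates, from 11.2 to 4.45 (D) and from 11.3 to 3.55 (E) in the knockdown lines. At 0 h it had been 22.6 and 21.0 in the shNS replicates and 46.0 and 18.1 in lines D and E. The shNS signal was thus higher at 8 h than before the drug. The knockdown lines stood lower than the controls at 8 h and slightly higher at 12 h. They kept 39.7% and 31.4% of the 8 h signal, and the shNS replicates 9.49% and 9.14%. The late decay difference was 1.61 (SE 0.13, adjusted p = 0.00139), or 3.04-fold once each line is divided by its median gene. On the deposited scale, with no such division, it was 1.92. DDX5 itself showed no such pattern, with centred late changes of -0.49 and -0.44 in the shNS replicates, -0.54 and -0.33 in lines D and E, and a difference of 0.03 (SE 0.12, adjusted p = 0.910) that was negative in line D alone.

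MIR4461 was the one call in the other direction. It is a microRNA gene at chr5:134928039-134928112 (GRCh38, plus strand), inside an intron of all 4 spanning transcripts of PCBD2, which was no member. MTND4LP30, annotated on the opposite strand, overlaps it as well, and the source of its reads was not tested. The MIR4461 signal at 8 and 12 h was 11.7 and 4.12 in shNS replicate 1, 3.97 and 1.96 in replicate 2, 6.38 and 1.57 in line D, and 10.5 and 1.82 in line E. The shNS replicates kept 35.3% and 49.5% and the knockdown lines 24.6% and 17.4%, a difference of -1.33 (SE 0.14, adjusted p = 0.0120). The shNS replicates stood at different levels at 8 h, and both changed less than lines D and E from 8 to 12 h. At 0 h the signal had been 55.5 and 47.8 in the shNS replicates and 10.2 and 24.0 in lines D and E. The whole-course difference, from 0 to 12 h, was 1.20, of the opposite sign.

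COMMD3-BMI1, the read-through transcript of neighbouring genes on chromosome 10, fell less in the knockdown. The shNS replicates kept 16.4% and 17.7% of its 8 h signal, line D 54.3% and line E 31.6%, with a late decay difference of 0.96 (SE 0.13, adjusted p = 0.0430). Its parts did not share this: COMMD3 had a difference of 0.08 (adjusted p = 0.741), negative in line D alone, and BMI1, a Polycomb protein of stem cells, one of -0.24 (adjusted p = 0.297), positive on the deposited scale. GPR89B, which encodes a Golgi anion channel, was called with a mean signal of 3.79, under the minimum of 5 set for naming genes, and is named after its values were seen. The shNS replicates kept 17.8% and 19.6% of it and lines D and E 53.5% and 39.8%, a difference of 0.99 (SE 0.13, adjusted p = 0.0430). Its near-identical copy GPR89A had -0.17 (adjusted p = 0.412), positive on the deposited scale.

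No other gene was called. The genes with the smallest p in each direction, among those of sufficient signal and with separated lines, are therefore given as values. The 8 next in the higher direction were all kept at between 13.1% and 30.9% in the shNS replicates. PPP3R1, the regulatory subunit of the phosphatase calcineurin, went from 43.5 to 8.00 and from 39.9 to 8.43 in the shNS replicates, from 33.4 to 15.1 (D) and from 58.7 to 21.3 (E) in the knockdown lines. Both knockdown lines thus kept about as much as their own median gene did, while the shNS replicates kept less than theirs, and the difference was 0.72 (SE 0.12, adjusted p = 0.0705). PYCARD, the adaptor of inflammasomes, was already higher in the knockdown at 8 h, at 25.2 and 24.8 in lines D and E and 21.4 and 17.3 in the shNS replicates. At 0 h it had been 76.6 and 58.8 in lines D and E and 49.1 and 43.5 in the shNS replicates. At 12 h it stood at 11.8 and 7.32 against 3.58 and 3.62, and its difference was 0.67 (SE 0.12, adjusted p = 0.0786).

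The same arrangement held for the rest of this group. MPLKIP, the gene of a non-photosensitive form of trichothiodystrophy, had the widest gap of the 8, 0.98 (SE 0.18), but its shNS replicates differed from each other, at -1.17 and -0.60. PSMG2, a chaperone of proteasome assembly, had a difference of 0.85 and IGBP1, a partner of protein phosphatase catalytic subunits, one of 0.69. EMC2, a subunit of the membrane protein insertase of the endoplasmic reticulum, had 0.62, and CYP51A1, the lanosterol demethylase of cholesterol synthesis, had 0.58. SIAH2, a ubiquitin ligase, differed from these in that its shNS changes lay near the median gene, at -0.16 and -0.07, while lines D and E lay above it, at 0.44 and 0.54.

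At the other end TK1, the thymidine kinase of S phase, came closest to a call. Its signal went from 36.9 to 11.8 and from 29.9 to 11.5 in the shNS replicates, from 29.6 to 8.43 (D) and from 30.8 to 6.65 (E) in the knockdown lines. The lines stood at like levels at 8 h and the knockdown was lower at 12 h, with a difference of -0.82 (SE 0.12, adjusted p = 0.0576). At 0 h TK1 had been 42.6 and 41.0 in the shNS replicates and 68.9 and 51.8 in lines D and E. RRM2, the small subunit of ribonucleotide reductase, ended at 43.4 and 42.5 in the shNS replicates and 25.4 and 30.5 in lines D and E, after 130 and 115 against 95.04 and 131 at 8 h. Its centred change was 0.18 in both shNS replicates, and its difference was -0.81 (SE 0.13, adjusted p = 0.0705).

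KIF23, the kinesin that bundles microtubules at the central spindle, had centred changes of 0.32 and 0.27 in the shNS replicates and -0.59 and -0.40 in lines D and E. This gives -0.79 (SE 0.12, adjusted p = 0.0705). KIF4A, a kinesin that travels on chromosome arms, had -0.70, and BIRC5 (survivin), of the chromosomal passenger complex, -0.68. KIAA0101, also named PCLAF, a PCNA-binding protein of S phase, had -0.72. EIF4EBP1, the repressor of the cap-binding translation factor, had -0.71, with a signal of 243 and 226 in the shNS replicates and 182 and 181 in lines D and E at 8 h. The remaining pair have near-identical copies and are uncertain: CBWD5, -0.76, beside CBWD3 at -0.32, and TMEM183B, a processed pseudogene, -0.74, beside its parent TMEM183A at -0.36.

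**Figure D2:**
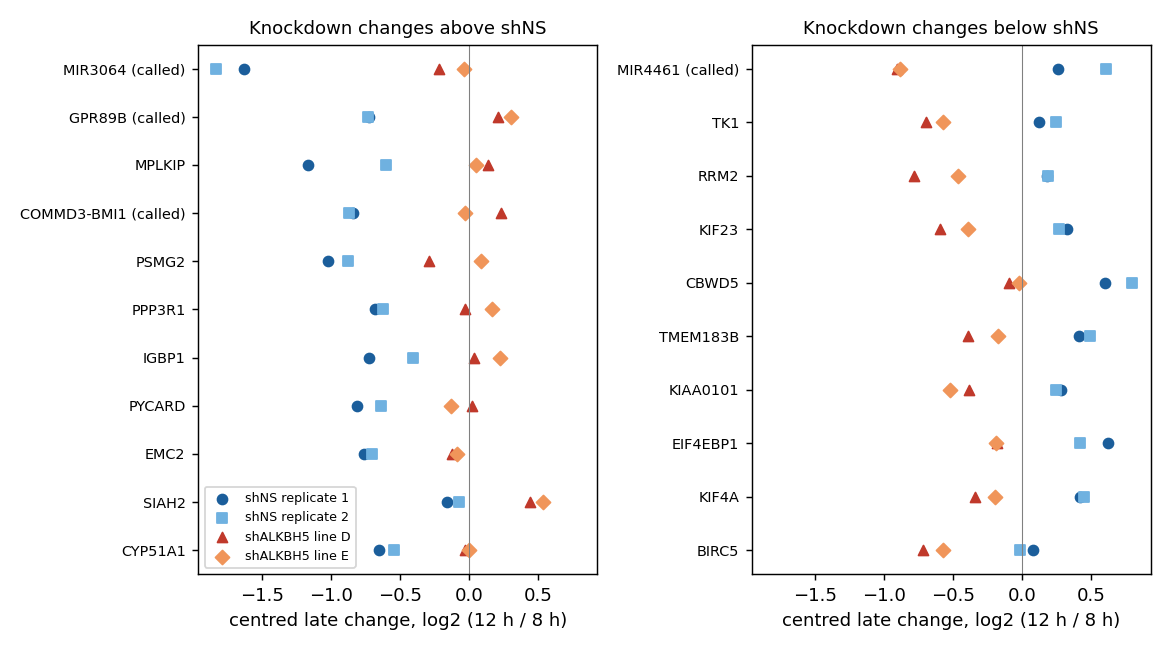
Centred late change (log2 of the 12 h over the 8 h signal, less that of the median gene) of each named gene in the 4 lines. Each symbol is 1 line, 0 is the median gene, and called genes are marked. On the left the knockdown symbols lie to the right of the shNS symbols, and on the right, as for TK1 at -0.70 and -0.58 against 0.12 and 0.24, to their left, which the choice of the genes required.

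The genes of mitosis lay mostly on the lower side. Of 45 members, 29 had both knockdown lines below both shNS replicates (64.4%, beside 26.1% of all genes) and 1 above (2.22%, beside 28.6%). Their median difference was -0.27 (-0.16 with a pseudocount of 1), beside 0.02 over all genes. Of the 45, 22 had unadjusted p under 0.05 on the lower side, beside 780 of all 7485 genes. None had it on the higher side, beside 797 of all genes. The median member of the list had centred changes of -0.19 and -0.08 in the shNS replicates and -0.46 and -0.31 in lines D and E. On the deposited scale the list's median difference was 0.04, with 25.8% and 30.7% of the 8 h signal of its median member kept in the shNS replicates and 33.5% and 26.01% in lines D and E. Against the same shNS replicates, line D alone gave a median of -0.31 and line E alone -0.23.

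TPX2 and NUSAP1, both spindle-assembly proteins, had the highest signal in this list. TPX2 went from 135 to 48.7 and from 120 to 45.5 in the shNS replicates, from 89.7 to 31.7 (D) and from 69.7 to 19.4 (E) in the knockdown lines. Its difference was -0.56 (SE 0.12, adjusted p = 0.0858) and that of NUSAP1 was -0.33 (SE 0.13, adjusted p = 0.191). CENPA, the histone variant of the centromere, was the lowest of the list at -0.90 (SE 0.16, adjusted p = 0.0786), and is named after its value was seen. TACC3, a reported ALKBH5 target, had 0.48 and 0.47 in the shNS replicates and -0.05 and 0.14 in lines D and E, a difference of -0.43 (SE 0.12, adjusted p = 0.122).

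The enzymes of DNA replication, a list that holds TK1 and RRM2, had members on both sides. Of 43 members 11 lay above and 13 below, shares of 25.6% and 30.2% that are near the 28.6% and 26.1% of all genes, and the median was 0.01, -0.16 with line D alone and 0.18 with line E alone. TK1 was the lowest member, and PRIM1, the small subunit of primase, was the highest at 0.69 (adjusted p = 0.0786), named after its value was seen. TYMS, thymidylate synthase, had -0.62 (adjusted p = 0.0786).

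Glycolysis genes lay on the lower side as well. Of 21 members, 13 lay below both shNS replicates (61.9%, beside 26.1% of all genes) and none above (28.6% of all genes). The median difference was -0.30, and 12 had unadjusted p under 0.05 on the lower side, beside 780 of all 7485 genes. In the shNS replicates the list's median gene kept more than the median of all genes, with centred changes of 0.38 and 0.30. In line D that was -0.16 and in line E 0.07. On the deposited scale the list's median difference was 0.02, and with line D or line E alone it was -0.35 or -0.26.

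GAPDH, which oxidises glyceraldehyde phosphate, went from 4333 to 1665 and from 3642 to 1452 in the shNS replicates, from 2107 to 922 (D) and from 2750 to 895 (E) in the knockdown lines. Its difference was -0.37 (SE 0.15, adjusted p = 0.195). ENO1, enolase, had centred changes of 0.46 and 0.39 in the controls, -0.67 in line D and 0.07 in line E, so the difference of -0.73 (SE 0.21, adjusted p = 0.127) was larger in line D. TPI1, triosephosphate isomerase, was the lowest member at -0.73 with the same split, 0.49 and 0.42 against -0.69 and 0.13. LDHA, lactate dehydrogenase, was the highest at 0.20 (adjusted p = 0.503), and negative in line D alone. Both of these are named after their values were seen. Among hypoxia-responsive genes outside glycolysis 11 of 17 lay below (64.7%, beside 26.1% of all genes) and 2 above (11.8%, beside 28.6%), with a median of -0.17. That median was -0.26 with line D alone, -0.08 with line E alone, -0.09 when centred on genes of like 0 h signal, -0.08 when centred on ribosomal protein genes, -0.04 with a pseudocount of 1, -0.10 with a 0 h signal of at least 30 and 0.15 on the deposited scale. MIF, a cytokine, had the highest signal of them and a difference of -0.61 (SE 0.13, adjusted p = 0.0858).

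The listed caspases and inhibitors lay on the higher side. The list does not hold BIRC5 (survivin), also of the inhibitor-of-apoptosis family, which lay below both shNS replicates with a difference of -0.68. Of 13 members 10 were above both shNS replicates (76.9%, beside 28.6% of all genes) and none below (26.1% of all genes), and all 13 differences were positive, with a median of 0.27. Of the 13 members, 6 had unadjusted p under 0.05 on the higher side, beside 797 of all 7485 genes. The median of the list was 0.29 with line D alone and 0.27 with line E alone. The list's median centred change was -0.26 and -0.26 in the shNS replicates and 0.04 and 0.00 in lines D and E. CASP4, an inflammatory caspase, had -0.31 and -0.30 in the shNS replicates and -0.03 and 0.07 in lines D and E, a difference of 0.33 (SE 0.12, adjusted p = 0.165). BIRC6, a large inhibitor of apoptosis, had 0.20 (SE 0.13, adjusted p = 0.393). CASP8, the initiator caspase of death receptors, was highest at 0.69 (SE 0.14, adjusted p = 0.0786), named after its value was seen.

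Nucleolar ribosome biogenesis had 27 of 59 members above both shNS replicates (45.8%, beside 28.6% of all genes) and 6 below (10.2%, beside 26.1%), with a median of 0.21 (0.11 with a pseudocount of 1). This came mainly from line E, whose median difference was 0.33 beside 0.08 in line D, each against the same shNS replicates. The members of highest signal went the other way. NPM1, nucleophosmin, had -0.21 (adjusted p = 0.438), and NCL, nucleolin, -0.10 (adjusted p = 0.789), both positive on the deposited scale and NCL also in line E alone and when centred on genes of like 0 h signal. UTP11, of the small-subunit processome, was highest at 0.76 (SE 0.16, adjusted p = 0.0858), named after its value was seen. Mitochondrial ribosomal proteins had 37 of 76 above (48.7%, beside 28.6% of all genes) and 8 below (10.5%, beside 26.1%), with a median of 0.16 (0.07 with a pseudocount of 1). Line E again had the larger median, 0.24 beside 0.05 in line D. The highest was MRPL1 at 0.75, or 0.27 to 1.07 over the alternative settings, named after its value was seen. MRPL37, of higher signal, had -0.30 (adjusted p = 0.194) and a positive sign on the deposited scale. Their cytoplasmic counterparts were on the other side, with 33 of 83 below (39.8%, beside 26.1% of all genes), 6 above (7.23%, beside 28.6%) and a median of -0.08. This value rested on the shNS replicates: it was -0.02 without replicate 1 and -0.16 without replicate 2. It was also -0.03 with a pseudocount of 1, -0.01 with a 0 h signal of at least 30 and 0.24 on the deposited scale.

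**Figure D3:**
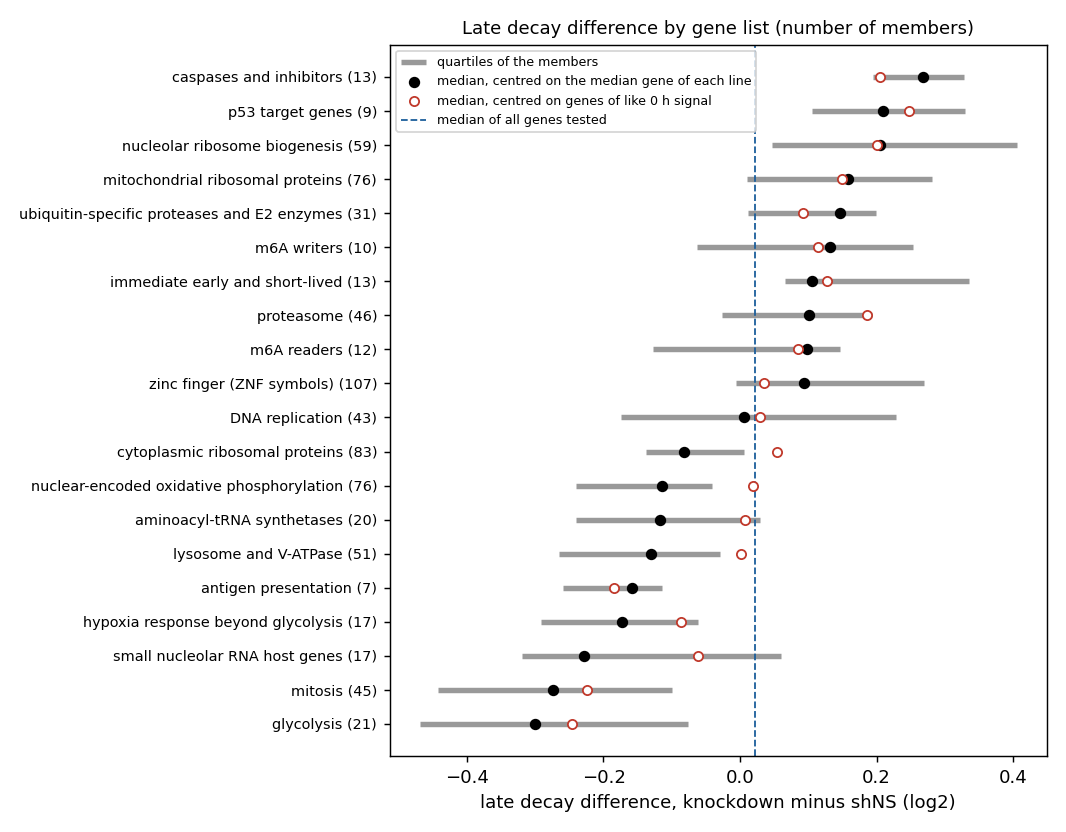
Late decay difference of 20 gene lists, with the number of members in brackets. Filled points are medians after centring on each line's median gene, open points medians after centring on genes of like 0 h signal, grey bars the quartiles and the dashed line the median of all genes, 0.02. Glycolysis at -0.30 and mitosis at -0.27 lie lowest and caspases at 0.27 highest under the first centring.

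The m6A machinery showed no called member. METTL3, the catalytic writer, had centred changes of 0.15 and -0.08 in the shNS replicates and 0.36 and 0.20 in lines D and E, a difference of 0.25 (SE 0.13, adjusted p = 0.289). Its partner METTL14 had -0.08 (adjusted p = 0.795) and the adaptor WTAP -0.13 (adjusted p = 0.551), both positive on the deposited scale and with a pseudocount of 1. FTO, the other demethylase, had -0.34 and -0.37 in the shNS replicates and 0.06 and 0.04 in lines D and E. Replicates of each arm thus nearly coincided, and the difference was 0.41 (SE 0.14, adjusted p = 0.151). The mean signal over the 8 libraries was 3.13 for FTO and 2.40 for METTL14, both under the minimum of 5 set for genes named by p. Of the writers 5 of 10 lay above (50%) and 2 below (20%), and of the readers 2 of 12 above (16.7%) and 3 below (25%), beside 28.6% and 26.1% of all genes.

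Among the readers, YTHDF2 had 0.18 and 0.25 in the shNS replicates and 0.44 and 0.62 in lines D and E, a difference of 0.31 (SE 0.13, adjusted p = 0.224). Its mean signal of 3.62 was also under that minimum. IGF2BP2 had -0.18 (SE 0.12, adjusted p = 0.420), positive on the deposited scale. Of 12 genes reported as targets of m6A demethylases in leukaemia, 5 lay above (41.7%) and 4 below (33.3%), beside 28.6% and 26.1% of all genes. RARA, the retinoic acid receptor alpha, was its highest member at 0.87 (SE 0.19, adjusted p = 0.0858), named after its value was seen, with signals below 2 in all 8 libraries. The RARA difference ranged from 0.27 to 1.19 over the alternative settings. CEBPA, a myeloid transcription factor, was kept at 25.4% and 28.5% in the shNS replicates and 50.6% and 46.0% in lines D and E, a difference of 0.52 (SE 0.14, adjusted p = 0.114), 0.33 with line D alone and 0.71 with line E alone. MYC, with a mean signal of 4.00, was kept at 39.1% and 47.7% against 70.3% and 71.2%, with a difference of 0.39 (SE 0.18, adjusted p = 0.236). Relative to the median gene line E stood highest, with a centred change of 1.14, while line D at 0.61 lay close to the shNS values of 0.41 and 0.56. The difference was accordingly 0.66 from line E alone and 0.13 from line D alone. MYB overlapped between arms and had 0.21 (adjusted p = 0.469), negative in line D alone. AXL was not analysed here.

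Late, early and whole-course differences did not run in parallel for the called features. They share libraries, the early change (8 h over 0 h) holding the 8 h and the whole change (12 h over 0 h) the 12 h libraries, so they are given only side by side. MIR3064 had a late difference of 1.61, an early one of -1.35 and a whole-course one of 0.24. MIR4461 had -1.33, 2.55 and 1.20. COMMD3-BMI1 had 0.96, -0.56 and 0.38. For these 3 the early and late values had opposite signs. GPR89B had 0.99, -0.0051 and 0.96. On the lower side, TK1 had -0.82, -0.08 and -0.92, and KIF23 had -0.79, -0.42 and -1.22, so the whole-course value of TK1 lay close to its late one and that of KIF23 beyond it. The smallest adjusted p of any gene was 0.0285 for the early and 0.167 for the whole-course difference.

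Abundance before the drug went with the difference. Over 7208 genes with a coding transcript in GENCODE 29, Spearman's correlation of the late decay difference with the mean 0 h signal was -0.36, a description across genes, which are not independent and share the libraries. In the lowest quintile, with a median 0 h signal of 16.7, the median difference was 0.12, and 40.8% of genes lay above and 12.3% below the shNS replicates. In the highest quintile, at 161, it was -0.15, with 10.6% above and 50.4% below. The slope was in the knockdown lines: their centred changes had rank correlations of -0.39 and -0.27 with 0 h signal, and those of the shNS replicates 0.01 and -0.07. No source used here says whether the deposited signal is per transcript length.

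**Figure D4:**
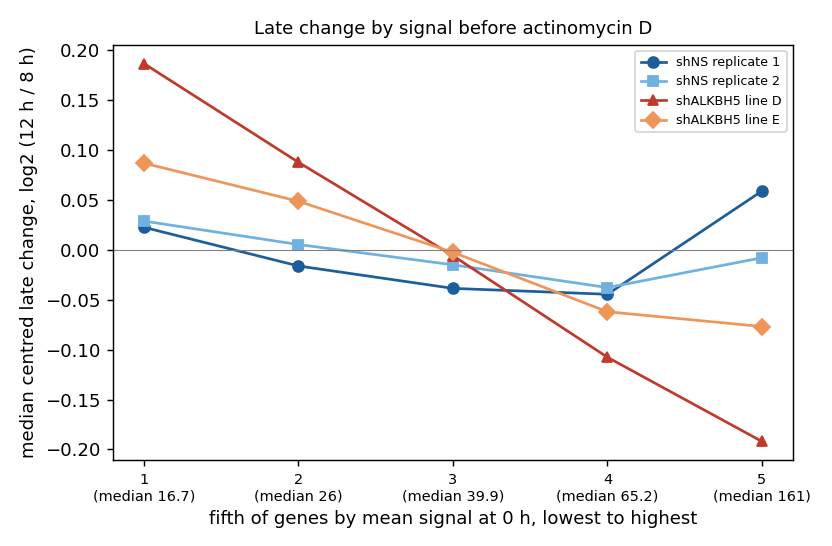
Median centred late change (log2) in each line for quintiles of genes by mean 0 h signal. Each point is the median of about 1442 genes. Lines D and E fall from 0.19 and 0.09 in the lowest to -0.19 and -0.08 in the highest quintile, and the shNS replicates stay between -0.04 and 0.06.

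Some lists followed this abundance pattern and others did not. When each line was centred on genes of like 0 h signal, a step added after the data were seen, the median of cytoplasmic ribosomal proteins moved from -0.08 to 0.05, that of nuclear-encoded oxidative phosphorylation from -0.11 to 0.02 and that of lysosome genes from -0.13 to 0.00. Small nucleolar RNA host genes moved from -0.23 to -0.06. Mitosis went from -0.27 to -0.22, glycolysis from -0.30 to -0.25, nucleolar genes from 0.21 to 0.20 and caspases from 0.27 to 0.20, so these kept most of their distance.

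Rank correlations with sequence composition were larger in the control than in the knockdown lines, a difference that was not tested. Spearman's correlation of the centred late change with the GC share of the coding sequence was 0.49 and 0.34 in the shNS replicates and 0.21 and 0.25 in lines D and E, and with the difference it was -0.24. For the GC share of the 3′ UTR, the correlation with the difference was -0.27. Genes whose knockdown lines lay above the shNS replicates had a median coding GC of 47.9% and those whose lines lay below 54.8%, beside 51.4% over all. The relation was not steady. Over quintiles of coding GC the median difference fell from 0.13 in the lowest to -0.08 in quintile 4, but was -0.0062 in the highest. Transcript length had a rank correlation of 0.21 with the difference.

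The AU-rich pentamer ATTTA, known as a core of destabilising elements in 3′ UTRs, gave a like picture. It was searched on the transcript strand in the 3′ UTR and is in 68.4% of genes at least once. From genes with no copy to those with 5 or more, the median centred change went from 0.12 to -0.15 and from 0.07 to -0.08 in the shNS replicates. In line D it went from 0.01 to 0.00, and in line E it went from 0.02 to -0.03. The median late decay difference thus went from -0.06 with no copy to 0.10 with 5 or more. Genes with more copies also had longer 3′ UTRs, with medians of 328 and 3008 bases, and the part of length was not tested.

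**Figure D5:**
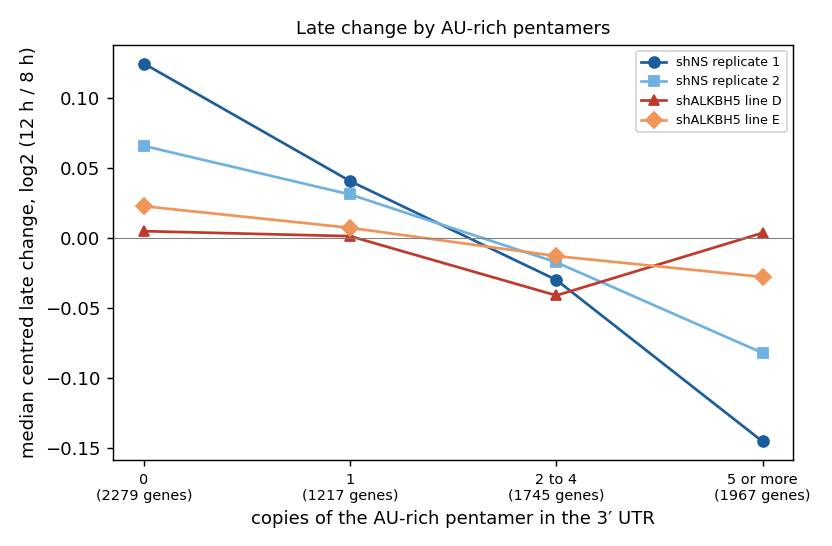
Median centred late change (log2) in each line by the number of copies of the AU-rich pentamer in the 3′ UTR. Points are medians of 1217 to 2279 genes. The shNS replicates go from 0.12 and 0.07 down to -0.15 and -0.08, and lines D and E stay between -0.04 and 0.02.

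The longer form TATTTAT is in 30.1% of 3′ UTRs, in 39.9% of those of genes with both knockdown lines above and in 18.03% of those of genes with both below. Median 3′ UTR lengths differed too, at 1007, 1330 and 739 bases in the same order, and the part of length was not tested. TATTTAT is not confined to either direction among the named genes, as the first copy in the 3′ UTR of 3 higher and 3 lower ones shows. The motif is in capitals, with 10 bases on either side, from GENCODE 29 transcripts (GRCh38).
PPP3R1: catatgtaaaTATTTATatatagatat
MPLKIP: tgtgccagtgTATTTATatcatatttg
CYP51A1: agtttattatTATTTATctgggcaatt
KIF23: caaatgctgcTATTTATtagctgcaag
KIAA0101: aaaaaatataTATTTATatatgaacaa
CBWD5: ttcaagcattTATTTATtactttagtt

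Of these, PPP3R1, MPLKIP and CYP51A1 hold 2 copies each, and KIF23, KIAA0101 and CBWD5 1 each. PYCARD, PSMG2 and IGBP1, also on the higher side, hold no copy of ATTTA or TATTTAT, and neither do TK1, KIF4A and BIRC5 on the lower side. GGACT, the commonest core of the m6A consensus, was searched on the transcript strand in whole transcripts. It is in 90.9% of genes, in 92.9% of those above and in 88.6% of those below. Its density per kilobase had a rank correlation of -0.04 with the late decay difference. By copies per transcript, the median difference went from -0.05 in genes without it to 0.05 in those with 5 or more, and these also differed in the median length of the 3′ UTR, 439 and 2093 bases.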

How the data were processed

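The members, gene lists and tests were chosen with earlier results of these data known. The deposited table holds one signal per gene symbol and library, apparently scaled by the authors to ERCC spike-ins; no label states this step, and no source used here gives the unit before it. STAR, RSEM and GRCh38 are named, without settings, in the submitters' processing notes. Counts are absent from the file, so depth is unknown and counting error cannot be given. No value was 0 (the lowest was 0.338), so log2 was taken with no pseudocount.

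Within-line changes were centred on the median of the 7485 members, and knockdown minus shNS was fitted with limma 3.58.1 in R 4.3.3 on 4 changes, leaving 2 residual degrees of freedom, with empirical Bayes and a prior variance following the mean log2 signal of the 8 libraries. Benjamini-Hochberg adjustment ran over all members, and adjusted p under 0.05 was called. A first run let the prior variance follow the mean change. It gave 19 higher and 11 lower calls and was replaced after they were seen, because the mean signal is the usual covariate; it is kept as an alternative. An exact permutation test of 2 against 2 cannot go below a two-sided p of 0.333. The letters D and E recur in the headers at each time, which pairs the knockdown libraries: their deviations from the group mean correlated at 0.907 between 8 and 12 h, and those of the shNS replicates at 0.097. The replicate number, by which the shNS libraries were paired, thus hardly linked them, and without the replicate block no gene was called.

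Named were the 10 genes of smallest p in each direction with a mean signal of at least 5 and no overlap. Also named were 12 fixed genes (AXL was not analysed here). The rule further took the 2 members of highest signal of each list, but not all of these are given in the text. Genes outside the rule are marked in the text. Of 51 lists, those described here and the 20 plotted are a part. CDKN1A is not reported here. Transcript features used 1 coding transcript per gene from GENCODE 29, with 7218 members matched by symbol, 167 by an older symbol through RefSeq synonyms and 100 not matched.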

Additional observations from a re-analysis of the deposited data

Results flagged for a closer look

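The late decay difference is a difference between arms of a change within each line, so its 4 called features are those whose time course differed between knockdown and control by a test of that difference. MIR3064 had 1.61, MIR4461 -1.33, GPR89B 0.99 and COMMD3-BMI1 0.96 (log2, limma with Benjamini-Hochberg adjustment, adjusted p of 0.00139, 0.0120, 0.0430 and 0.0430). In each, both knockdown lines lay on one side of both shNS replicates, as they did for 28.6% (above) and 26.1% (below) of all genes. This separation is no further support for the calls. For MIR3064 the knockdown lines were lower at 8 h, at 11.2 and 11.3 against 32.7 and 31.8, and at 12 h all 4 libraries lay between 2.90 and 4.45. COMMD3-BMI1 was likewise lower in the knockdown at 8 h, at 7.31 and 7.59 against 20.2 and 17.4. The cause was not tested for any of the 4.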

How the results depend on the processing

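Of 16 alternatives, one, a pseudocount of 0.1, left the main counts as they were. These counts of 3 higher and 1 lower became 2 and 0 on the deposited scale (578 genes at unadjusted p under 0.05). Only 1 of those 2 was a main call. The counts were 87 and 43 when centred on ribosomal protein genes, 5 and 8 with median-of-ratios scaling and 2 and 0 with a pseudocount of 1 (1191 unadjusted). They were 0 and 0 with a 0 h signal of at least 30 (873 unadjusted of 3896) and 1 and 1 with no filter. Without the replicate block they were 0 and 0, with the replicate block over 12 libraries 0 and 0, and 2 and 1 with no mean-variance trend. Line D alone gave 345 and 657 and line E alone 517 and 311. Leaving out a shNS replicate gave 7 (without replicate 1) to 34 (without replicate 2) higher and 8 to 24 lower. Added after the data were seen, the trend on the mean change gave 19 and 11, and centring on genes of like 0 h signal 6 and 3. The former held 2 of the 3 higher main calls and the 1 lower one. In the fits on 1 line or with 1 replicate, the lone library is assumed to vary like the others. Causes were not tested.

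Of 57 genes given with a difference, 44 kept their direction in every alternative that held them, 15 or 16 per gene, and 13 did not. On the deposited scale the reversed values were METTL14 0.24, WTAP 0.19, IGF2BP2 0.14, NCL 0.22, NPM1 0.11, MRPL37 0.017, BMI1 0.081 and GPR89A 0.15. In line D alone they were MYB -0.048, LDHA -0.066, DDX5 -0.076 and COMMD3 -0.0088. In line E alone they were ALKBH5 -0.16, METTL14 0.0086 and NCL 0.23. METTL14 was 0.017 when centred on ribosomal protein genes, METTL14 0.070 and WTAP 0.0071 with a pseudocount of 1, and NCL 0.079 when centred on genes of like 0 h signal.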

Other observations

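The medians of several further lists differed between lines or with signal. Zinc finger genes had 43 of 107 members above both shNS replicates (40.2%, beside 28.6% of all genes) and 10 below (9.35%, beside 26.1%), with a median late decay difference of 0.09. That median was 0.23 with line D alone, 0.04 with line E alone, and 0.04 when centred on genes of like 0 h signal. Immediate early and other short-lived mRNAs had 4 of 13 above (30.8%, near the 28.6% of all genes) and none below (26.1% of all genes), with medians of 0.34 for line D and -0.07 for line E. Lysosome and V-ATPase genes had 24 of 51 below (47.1%, beside 26.1% of all genes) and 6 above (11.8%, beside 28.6%), with a median of -0.13 that became 0.00 on genes of like signal. Proteasome genes had 11 of 46 above (23.9%) and 7 below (15.2%), both under the shares of all genes. Their median of 0.10 moved to 0.19 on genes of like signal, and was -0.04 for line D and 0.20 for line E. Of the p53 target genes analysed here 5 of 9 lay above (55.6%, beside 28.6% of all genes) and 1 below (11.1%, beside 26.1%). Their median of 0.21 was alike in both lines, 0.24 for line D and 0.20 for line E, and was 0.12 without shNS replicate 2 and 0.13 with a pseudocount of 1. These values are descriptions with no test.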
